A study of Bos taurus with 23 samples.

Results

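Peripheral white blood cells (PWBC) of heifers that failed to conceive in their first breeding season were compared with those of heifers that conceived to artificial insemination (AI), in 9 libraries of experimental station B. The 9 libraries were taken from the 12 of station B, in a series of 23 libraries from 2 stations with 1 library per heifer. They were chosen by a measured value, the share of a library's counts that fell on genes absent from the authors' filtered count table of the station, with a limit of 1%. The libraries kept were SL253805, SL253806, SL253813 and SL253814 of non-pregnant heifers and SL253803, SL253807, SL253809, SL253810 and SL253812 of AI-pregnant heifers. Libraries SL253804 and SL253811 (non-pregnant) and SL253808 (AI-pregnant) were set aside.

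All heifers were pubertal Angus x Simmental crosses whose estrus had been synchronized in the same way, with gonadotropin-releasing hormone (GnRH), a progesterone insert and prostaglandin, before AI at a fixed time. Blood was drawn from the jugular vein right after AI, so both outcomes were still in the future when the cells were taken. AI-pregnant heifers of station B conceived to that insemination. Non-pregnant heifers carried no conceptus at the palpation that followed the season, although bulls had been put with them 2 weeks after AI. The heifers of both groups had been selected for sequencing because they were alike in age and body measures. In station A, which was used only to set values side by side, AI-pregnant heifers were compared with heifers that conceived later to natural breeding (NB-pregnant).

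PWBC are a mixture of lymphocytes, monocytes, neutrophils and rarer cells such as eosinophils and basophils, collected here from the buffy coat after lysis of red blood cells. Their transcripts report both which of these cells circulate and what each is doing, and around estrus these cells are exposed to changing ovarian steroids. In such bulk samples, fewer cells of a type and less RNA per cell cannot be told apart. Genes are identified in the count tables by Ensembl identifiers without symbols, and none of these identifiers occurred in the gene name table used here. Symbols were therefore known only for the 24 genes that the study lists, and the white cell makeup of the libraries could not be checked against markers.

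The 9 libraries held 0.106% to 0.167% of their counts on the filtered-out genes, whereas the 3 set aside held 1.76% (SL253804), 2.27% (SL253808) and 3.18% (SL253811). The values just inside and just outside the limit were those of SL253813 (0.167%) and SL253804 (1.76%). Non-pregnant heifers had both the lowest (SL253805) and the highest (SL253813) share among the 9.

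**Figure D1:**
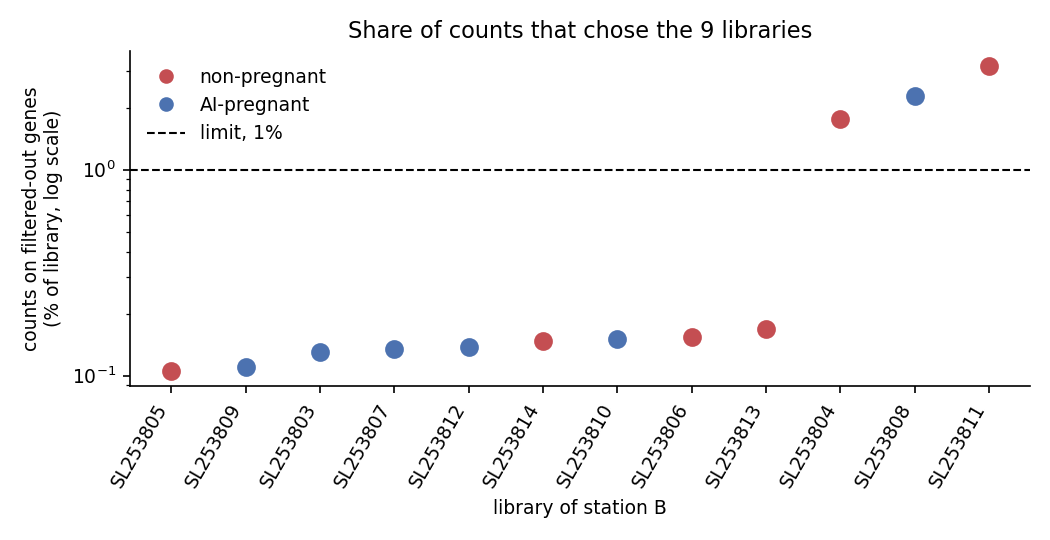
Share of each library's counts on genes absent from the filtered station B count table (y axis, percent of the library, log scale) for the 12 libraries of station B (x axis, ordered by share), colored by outcome. The dashed line is the limit of 1%, and the 9 libraries kept lie between 0.106% and 0.167%, below the 3 set aside at 1.76% to 3.18%.

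Totals of read pairs counted on genes were 5577129 to 9164103 in the non-pregnant and 6602567 to 9330573 in the AI-pregnant libraries. A level of 1 CPM, a count scaled to the library total, thus rested on 5.58 to 9.33 read pairs, and genes near that level carried large counting error. Genes with more than 1 CPM in 4 or more of the 9 libraries were tested, 10835 of the 24616 in the table. Every one of the 36 pairs of libraries differed by more than counting noise, with a chi-square per degree of freedom of 12.3 to 67.1. Pairwise correlations of log2 CPM across genes were 0.947 to 0.980, with a median of 0.967 over the 16 pairs of libraries with the same outcome and 0.970 over the 20 pairs with different outcomes. On the first principal component, which held 35.5% of the variance, the non-pregnant libraries spread from -56.0 to 27.4 and the AI-pregnant ones from -25.8 to 36.2, so the groups overlapped. The value of -56.0 belonged to SL253805, which also had the lowest share above and the fewest genes over 1 CPM (9970, against 10413 to 10905 in the other 8).

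The question was which transcripts in PWBC at AI differ between heifers with the 2 outcomes. A single gene, ENSBTAG00000027962, passed edgeR's quasi-likelihood test after Benjamini-Hochberg adjustment over all genes tested, which is 0.00923% of the 10835, and it was higher in non-pregnant heifers. The next smallest adjusted p was 0.99995. Without adjustment, 99 genes (0.914%) had a quasi-likelihood p below 0.05, of which 59 were higher and 40 lower in non-pregnant heifers. That share is smaller than the fraction of 0.05 that this limit would give if no gene differed. The median log2 fold change over all genes was -0.02, and 66 genes (46 higher, 20 lower) differed by more than 1 on the log2 scale. Groups did not overlap in 18 genes (0.166%) that were higher and in 15 genes (0.138%) that were lower in non-pregnant heifers. The number of genes with an unadjusted p below 0.05 depended on the libraries. It was 590 without SL253805, 197 without SL253810 and 189 without SL253814, and 53 without SL253806 and 64 without SL253812. Without SL253805 the adjusted call remained that of ENSBTAG00000027962.

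The study calls a gene where the likelihood ratio test of edgeR, run without normalization factors, and the Wald test of DESeq2 each reach 0.01 or lower without adjustment. By this rule 12 genes (0.111%) were called. Of these, 9 (0.0831%) were higher and 3 (0.0277%) lower in non-pregnant heifers. With normalization factors by trimmed mean of M values (TMM) in the likelihood ratio test, the rule called 7 genes higher and 5 lower, 10 of them the same genes. The number depended on SL253805, since without this library the rule called 105 genes (96 higher, 9 lower), 7 of which were among the 12. It was 25 without SL253814, 21 without SL253803 or SL253810, and 20 without SL253807 or SL253809.

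**Figure D2:**
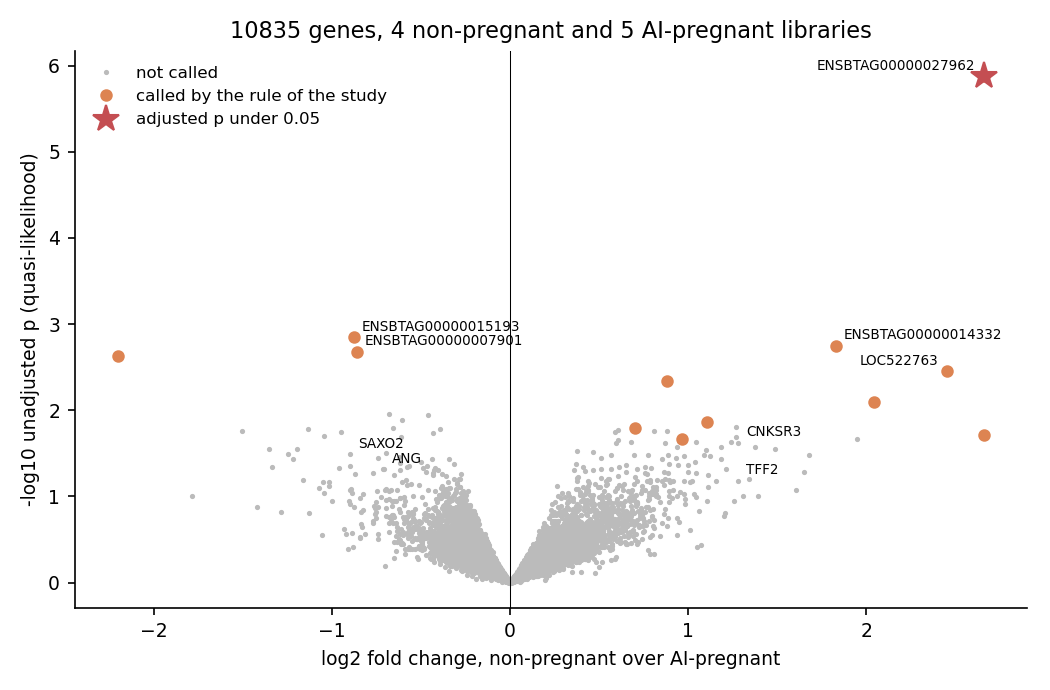
Log2 fold change of non-pregnant over AI-pregnant heifers (x axis) against the -log10 of the unadjusted quasi-likelihood p (y axis) for the 10835 genes tested in the 9 libraries. The star is the gene with an adjusted p below 0.05, ENSBTAG00000027962 at 2.66, and the large points are the other 11 genes called by the rule of the study.

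ENSBTAG00000027962 was at 16.7 (SL253805), 9.50 (SL253806), 10.7 (SL253813) and 9.45 CPM (SL253814) in the non-pregnant heifers. In the AI-pregnant heifers it was at 1.299 (SL253803), 1.29 (SL253807), 1.67 (SL253809), 1.99 (SL253810) and 2.84 CPM (SL253812). Every non-pregnant library thus lay above every AI-pregnant one, and the lowest non-pregnant value was more than 3 times the highest AI-pregnant value. Means were 11.6 ± 3.47 CPM (SD, n = 4) and 1.82 ± 0.643 CPM (SD, n = 5). The log2 fold change was 2.66 with a standard error of 0.34, a 6.32-fold difference (unadjusted p = 1.32e-06 and adjusted p = 0.0143, edgeR quasi-likelihood). The two-sided exact permutation p of the CPM was 0.0159, the smallest that reassigning 4 and 5 libraries can give. Each of the 33 tested genes whose groups did not overlap would get this p. Since the gene was named for its result in the same libraries, the permutation adds no support. Per gene length, the authors' FPKM averaged 17.2 and 2.70.

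The gene kept its direction whichever library was left out, with log2 fold changes of 2.36 to 2.88 and adjusted p of 0.0183 to 0.0902. The adjusted call held without SL253805, SL253806, SL253812 or SL253814. It was lost without SL253803 (adjusted p = 0.0597, edgeR quasi-likelihood), SL253807 (0.0712), SL253809 (0.0902), SL253810 (0.0507) or SL253813 (0.0578). The unadjusted rule of the study called it in all 9 of these fits. When the first principal component was added as a covariate, the log2 fold change was 2.60 (adjusted p = 0.0148, edgeR quasi-likelihood), and DESeq2 and limma-voom called the same gene and no other after adjustment.

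The libraries set aside did not continue this pattern. There, ENSBTAG00000027962 was at 0.999 CPM in SL253804 and 2.54 CPM in SL253811, both non-pregnant, and at 6.36 CPM in the AI-pregnant SL253808. The order of the outcomes was thus the opposite of that in the 9 libraries. In a fit of all 12 libraries with a term for the library class, the outcome effect in the 3 libraries minus that in the 9 was -4.37 on the log2 scale. The AI-pregnant arm of the 3 libraries is SL253808 alone, so its spread is unknown and no p is given. The gene was also picked for its effect in the 9, which is part of this difference. Fitted over all 12 libraries without that term, the log2 fold change was 1.69 (adjusted p = 0.874, edgeR quasi-likelihood). Whether the library class has a part in the result was not tested beyond these fits.

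Heifers of station A also ranged widely in this gene. NB-pregnant heifers were at 0.8288 to 11.2 CPM with a median of 4.37, and AI-pregnant heifers at 1.31 to 11.03 CPM with a median of 2.30. The groups overlapped over nearly their whole range, with a log2 fold change of 0.68 for NB-pregnant over AI-pregnant heifers (SE 0.69, unadjusted p = 0.339, edgeR quasi-likelihood). Both the low level near 1 CPM and the level of 9 CPM and more were therefore found among AI-pregnant heifers of station A. The higher level was that of SL220766 alone (11.03 CPM), and the next AI-pregnant value was 2.75 CPM in SL220775.

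**Figure D3:**
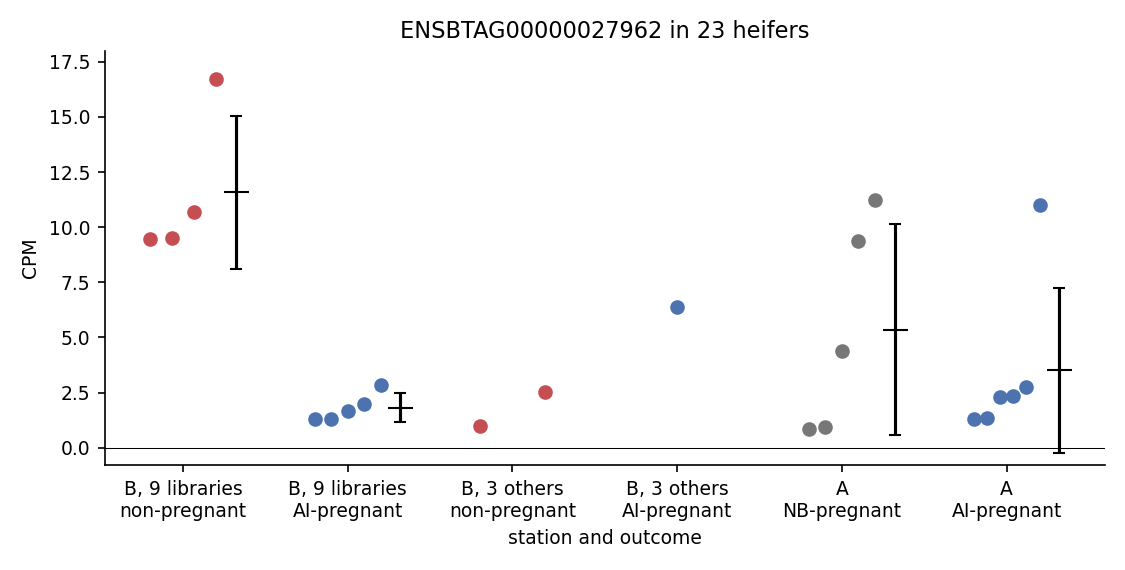
CPM of ENSBTAG00000027962 (y axis) in the 23 heifers, by station, library class and outcome (x axis), each point a heifer and each bar the mean ± SD of groups of 4 or more. The 4 non-pregnant heifers among the 9 libraries lie at 9.45 to 16.7 CPM and the 5 AI-pregnant ones at 1.29 to 2.84, while the 3 other libraries of station B show the opposite order and the groups of station A overlap.

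Of the 12 genes that the rule of the study called, 3 had groups that did not overlap, ENSBTAG00000027962 and 2 genes that were lower in non-pregnant heifers. The first of these, ENSBTAG00000015193, was at 13.9 (SL253805), 11.5 (SL253806), 17.1 (SL253813) and 19.3 CPM (SL253814) in non-pregnant heifers. In AI-pregnant heifers it was at 21.1 (SL253803), 22.4 (SL253807), 28.2 (SL253809), 38.5 (SL253810) and 29.1 CPM (SL253812). The groups were separated by less than 2 CPM, and the log2 fold change was -0.88 (SE 0.22, unadjusted p = 0.00143, edgeR quasi-likelihood). The rule no longer called it without SL253806, where the log2 fold change was -0.76. In the 3 libraries set aside its level stood above at most 2 of the 9, at 7.15 and 14.6 CPM where the heifer was non-pregnant and 12.8 CPM where it was AI-pregnant.

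ENSBTAG00000007901 was at 23.2, 18.5, 24.1 and 24.4 CPM in the non-pregnant libraries SL253805, SL253806, SL253813 and SL253814. AI-pregnant values were 34.7, 32.05, 27.1, 65.5 and 43.6 CPM in SL253803, SL253807, SL253809, SL253810 and SL253812. The non-pregnant heifers were close together, the AI-pregnant ones spread more than 2-fold, and the log2 fold change was -0.86 (SE 0.23, unadjusted p = 0.00208, edgeR quasi-likelihood). The rule no longer called it without SL253806 or SL253810. In the libraries set aside, both non-pregnant values (31.5 and 52.2 CPM) lay above the AI-pregnant value of 27.7 CPM.

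ENSBTAG00000014332 was higher in non-pregnant heifers, at 8.12, 16.1, 4.15 and 3.38 CPM in SL253805, SL253806, SL253813 and SL253814. It was at 1.42, 1.82, 2.57, 3.86 and 1.22 CPM in the AI-pregnant SL253803, SL253807, SL253809, SL253810 and SL253812. The ranges overlapped, because SL253814 lay below SL253810, and SL253806 gave 50.8% of the summed non-pregnant CPM. The log2 fold change was 1.83 (SE 0.48, unadjusted p = 0.00178, edgeR quasi-likelihood), and the rule called the gene whichever of the 9 libraries was left out. In the libraries set aside it was at 0.769 and 0.685 CPM in non-pregnant heifers and at 1.296 CPM in the AI-pregnant one.

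LOC522763 (ENSBTAG00000001308), which the study left without a description, was the only gene of the study's station B list that its rule also called in the 9 libraries. Its CPM in non-pregnant heifers were 40.1 (SL253805), 4.12 (SL253806), 8.40 (SL253813) and 59.7 (SL253814). AI-pregnant heifers were at 5.08 (SL253803), 5.14 (SL253807), 6.51 (SL253809), 2.87 (SL253810) and 5.82 CPM (SL253812). The difference thus came from 2 of the 4 non-pregnant heifers, SL253805 and SL253814, while SL253806 lay below 4 of the 5 AI-pregnant heifers. The log2 fold change was 2.45 (SE 0.66, unadjusted p = 0.00348 and adjusted p = 0.99995, edgeR quasi-likelihood), and the two-sided exact permutation p was 0.0794. The rule lost the call without SL253805 or SL253814, where the log2 fold changes were 2.17 and 1.83, and with limma-voom and quality weights the value was 0.74. The 3 libraries set aside showed no high value, with 4.38 and 4.31 CPM in the non-pregnant libraries and 6.48 CPM in the AI-pregnant one.

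The other 7 genes called by the rule had log2 fold changes from -2.20 to 2.66, and 1 of them was lower in non-pregnant heifers. This gene, at -2.20, was at 0.159 to 0.717 CPM in non-pregnant and 0.591 to 3.86 CPM in AI-pregnant heifers. It thus passed the filter of 1 CPM only through the group where it was high. The rule did not call it without SL253807, SL253809, SL253810 or SL253812. Among the 9 genes called higher, 4 had more than 50% of their summed non-pregnant CPM in a single library. Taking all 12, the difference of non-pregnant and AI-pregnant means in the 3 libraries set aside, on the log2(CPM + 1) scale, had the same sign as in the 9 for 7 genes. In station A, 11 of the 12 were tested, 4 had the same sign for NB-pregnant over AI-pregnant heifers, and none had an unadjusted p below 0.05. The corresponding figure over all genes tested in both was 4646 of 10437 with the same sign.

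The 6 genes that the study lists for station B were chosen on all 12 libraries, the 9 and the 3 set aside. Their direction in either is therefore not independent evidence. In the 9 libraries, 5 were higher and SAXO2 lower in non-pregnant heifers, as fitted values. None passed the adjusted quasi-likelihood test, 3 had an unadjusted p below 0.05 (against 0.914% of all genes), and 1 was called by the rule (against 0.111%). Their median log2 fold change was 0.99, beside -0.02 over all genes. For NB-pregnant over AI-pregnant heifers of station A, 3 of the 6 had the same sign. TFF2 (-0.08), TAC3 (-0.17) and SAXO2 (0.31) had the opposite sign there. TAC3, TFF2, ALAS2, CNKSR3 and SAXO2 were no longer called by the rule in the 9 libraries, although all 6 were called in the fit of 12. The study itself states that its calls of ALAS2, LOC522763, TAC3 and TFF2 came mostly from some of the non-pregnant heifers. By quantitative PCR of the same heifers it also measured TAC3 and LOC522763 higher in the non-pregnant group.

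TAC3 encodes the precursor of neurokinin B, a tachykinin peptide that acts on the hypothalamic neurons controlling GnRH release. It was at 13.2 (SL253805), 23.1 (SL253806), 33.3 (SL253813) and 72.3 CPM (SL253814) in non-pregnant heifers. AI-pregnant heifers were at 6.85 (SL253803), 33.3 (SL253807), 8.18 (SL253809), 25.9 (SL253810) and 32.1 CPM (SL253812). The ranges overlapped apart from SL253814, and the log2 fold change was 0.69 (SE 0.53, unadjusted p = 0.217, edgeR quasi-likelihood), or 0.09 without that library. The non-pregnant libraries set aside, SL253804 and SL253811, held 130 and 226 CPM, above all 9, and the AI-pregnant SL253808 held 6.13 CPM. The outcome effect was 4.25 higher on the log2 scale in these 3 libraries than in the 9. SL253808 is again the lone AI-pregnant library, so its spread is unknown and no p is given.

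CNKSR3, a scaffold protein of the aldosterone response that regulates epithelial sodium channels, was at 2.07 (SL253805), 2.51 (SL253806), 1.64 (SL253813) and 5.50 CPM (SL253814) in non-pregnant heifers. AI-pregnant heifers were at 2.13 (SL253803), 1.61 (SL253807), 0.757 (SL253809), 0.441 (SL253810) and 0.812 CPM (SL253812). The AI-pregnant levels rested on 4 (SL253810) to 18 (SL253803) read pairs. Only SL253803 reached into the non-pregnant range, whose lowest value stood just above the 1.61 CPM of SL253807. The log2 fold change was 1.28 (SE 0.51, unadjusted p = 0.0237, edgeR quasi-likelihood), with an exact permutation p of 0.0635 (two-sided) and a value of 0.78 without SL253814. Non-pregnant libraries set aside were at 2.77 and 1.71 CPM and the AI-pregnant one at 0.825 CPM. In station A the log2 fold change was 0.83 for NB-pregnant over AI-pregnant heifers (SE 0.33, unadjusted p = 0.0281, adjusted p = 0.999, edgeR quasi-likelihood), with the same sign.

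TFF2, a trefoil peptide secreted by mucous epithelia, was at 1.91 (SL253805), 8.07 (SL253806), 0.655 (SL253813) and 1.97 CPM (SL253814) in non-pregnant heifers. It was at 1.299 (SL253803), 0.857 (SL253807), 1.82 (SL253809), 1.88 (SL253810) and 0.271 CPM (SL253812) in AI-pregnant heifers. Except in SL253806 the levels lay below 2 CPM and rested on 2 to 17 read pairs. The log2 fold change of 1.28 (SE 0.64, unadjusted p = 0.0656, edgeR quasi-likelihood) dropped to 0.27 without SL253806. The non-pregnant SL253804 and SL253811, set aside, were at 22.4 and 69.8 CPM, above all 9, and SL253808 was at 3.77 CPM.

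ALAS2 encodes the red cell form of the first enzyme of heme synthesis. Its non-pregnant values were 4.14 (SL253805), 9.50 (SL253806), 3.71 (SL253813) and 4.09 CPM (SL253814). Its AI-pregnant values were 1.42 (SL253803), 5.89 (SL253807), 6.06 (SL253809), 2.87 (SL253810) and 2.57 CPM (SL253812). The ranges overlapped, with a log2 fold change of 0.45 (SE 0.45, unadjusted p = 0.335, edgeR quasi-likelihood) and 0.05 without SL253806. The non-pregnant libraries set aside held 16.8 and 44.3 CPM and the AI-pregnant one 4.95 CPM. No other gene of the red cell list could be matched to an identifier, and the part that residual red cell precursors have in these values was not tested.

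SAXO2, named for stabilizing the microtubules of the axoneme, was the only gene of the station B list whose groups did not overlap. Non-pregnant heifers were at 1.43 (SL253805), 1.43 (SL253806), 0.873 (SL253813) and 1.13 CPM (SL253814), and AI-pregnant heifers at 2.13 (SL253803), 1.61 (SL253807), 1.82 (SL253809), 2.54 (SL253810) and 2.98 CPM (SL253812). These levels rest on 8 to 23 read pairs per library, and the groups came as close as 1.43 and 1.61 CPM. The log2 fold change was -0.90 (SE 0.38, unadjusted p = 0.0325, edgeR quasi-likelihood), and the exact two-sided permutation p was 0.0159. Any gene whose groups do not overlap gets this permutation p. The 3 libraries set aside gave 1.15 and 0.734 CPM (non-pregnant) and 1.89 CPM (AI-pregnant), in the same order, but the study had chosen the gene on them too. In a fit of all 12 with a term for the library class the log2 fold change was -0.92 (adjusted p = 0.99989, edgeR quasi-likelihood). In station A it was 0.31 for NB-pregnant over AI-pregnant heifers (SE 0.41, unadjusted p = 0.469, edgeR quasi-likelihood), with the opposite sign.

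**Figure D4:**
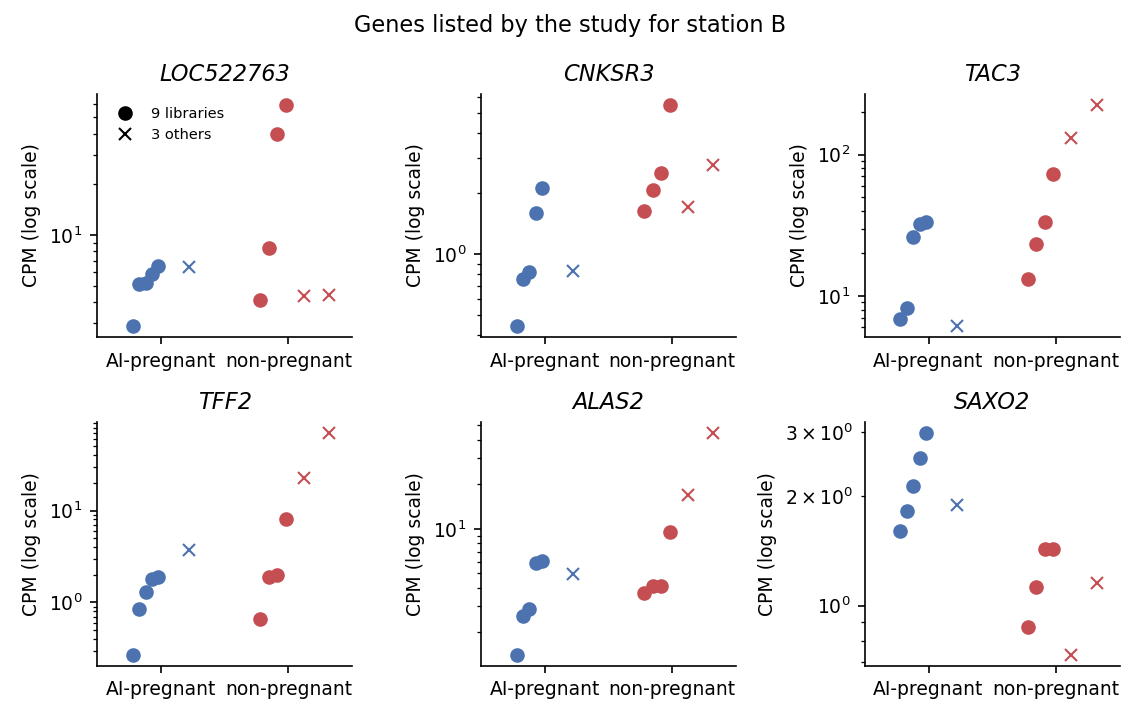
CPM (y axes, log scale) of the 6 genes that the study lists for station B in AI-pregnant and non-pregnant heifers (x axes), with circles for the 9 libraries and crosses for the 3 set aside. TAC3, TFF2 and ALAS2 reach their highest levels in the 2 non-pregnant libraries set aside (130 and 226 CPM for TAC3), LOC522763 is high in 2 of the 9 libraries, and SAXO2 separates the groups.

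The 18 genes that the study lists for station A were called there by its rule between NB-pregnant and AI-pregnant heifers. They were thus chosen on heifers other than the 9 here. In the quasi-likelihood fit of station A, 0 genes passed the adjustment. The station A values given below come from the heifers on which the genes were chosen. Of the 18 genes, 16 were tested in the 9 libraries, and TPPP and KIR3DL1 stayed below the level needed. None passed the adjusted quasi-likelihood test (against 0.00923% of all genes) or the rule of the study (against 0.111%). None had groups that did not overlap (against 0.166% higher and 0.138% lower). Shares this small leave little room for a call among 16 genes. Log2 fold changes were positive in 9 and negative in 7, beside 4988 and 5847 of all genes. Their median log2 fold change was 0.11, beside -0.02 over all genes. The sign was that of station A in 7 of the 16, beside 4646 of 10437 over all genes tested in both.

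In innate defence, ANG, the ribonuclease angiogenin, had the only unadjusted p below 0.05 in the list (against 0.914% of all genes). Non-pregnant heifers were at 5.73 (SL253805), 9.14 (SL253806), 8.29 (SL253813) and 7.05 CPM (SL253814), and AI-pregnant heifers at 5.91 (SL253803), 7.40 (SL253807), 13.9 (SL253809), 20.2 (SL253810) and 12.9995 CPM (SL253812). The groups overlapped through SL253803 and SL253807, the log2 fold change was -0.71 (SE 0.33, unadjusted p = 0.0482, edgeR quasi-likelihood), and the exact two-sided permutation p was 0.175. In station A the value was -0.94 (SE 0.27) for NB-pregnant over AI-pregnant heifers. The libraries set aside had the opposite order. ANG was there at 14.0 (SL253804) and 20.0 CPM (SL253811) in non-pregnant heifers and at 8.48 CPM in the AI-pregnant SL253808. Fitted over all 12 libraries of station B, the log2 fold change was -0.08. Lysozyme (LYZ), an enzyme that breaks bacterial cell walls, had the highest level per gene length among the listed genes tested, with averages of the authors' FPKM of 824 and 714. It was at 777 to 1947 CPM in heifers without a pregnancy and 730 to 2146 CPM in those pregnant to AI. Its log2 fold change was 0.14 (SE 0.32) and turned to -0.11 without SL253814. DMBT1, a scavenger receptor of mucosal defence, was at 0.218 to 2.26 and 0.750 to 4.33 CPM, with a log2 fold change of -0.40 (SE 0.62) that turned positive in fits of all 12 libraries.

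Among the immune receptors, FCER1A, the alpha chain of the high affinity IgE receptor of basophils and mast cells, was at 14.9 to 21.7 CPM in the non-pregnant and at 7.82 to 21.0 CPM in the AI-pregnant heifers. Its log2 fold change was 0.21 (SE 0.26), beside -1.17 (SE 0.35) in station A. SIGLEC14, a sialic acid receptor of myeloid cells, was at 1.11 to 2.96 and 0.709 to 2.21 CPM, with a log2 fold change of 0.36 (SE 0.41). BOLA-DQB, a beta chain of the class II major histocompatibility complex, ranged from 0.538 to 18.3 and from 0.406 to 32.4 CPM. Heifers differed in it by far more than groups did, and its log2 fold change of -0.15 (SE 1.38) changed sign with the library left out. Reads that aligned to several places had been removed by the authors, so the counts of LYZ, BOLA-DQB, KIR3DL1 and SIGLEC14, which belong to families of similar genes, are uncertain.

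Among the metabolic genes, ALDH5A1, an enzyme in the breakdown of the transmitter GABA, was at 29.4 to 41.7 CPM in the non-pregnant and at 23.4 to 44.1 CPM in the AI-pregnant heifers, with a log2 fold change of 0.08 (SE 0.22) beside 1.42 (SE 0.32) in station A. GSTM3, a glutathione transferase, ranged from 0.705 to 3.71 and from 0.135 to 7.501 CPM (log2 fold change -0.37, SE 0.82). UGT8, which makes galactolipids of myelin, was at 1.43 to 12.1 and 2.17 to 21.96 CPM, with a log2 fold change of -0.93 (SE 0.75) and the opposite sign of station A (1.34, SE 0.41). The difference in UGT8 depended on single libraries, with a log2 fold change of -1.79 without SL253805 (unadjusted p = 0.0373, edgeR quasi-likelihood), -0.41 without SL253809 and -0.62 without SL253806. With limma-voom and quality weights it was -1.75 (unadjusted p = 0.0381).

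Of the genes of microtubules, TTLL1, which adds glutamate chains to tubulin, was at 4.15 to 38.2 CPM in the non-pregnant and at 3.64 to 30.6 CPM in the AI-pregnant heifers. Its log2 fold change of -0.45 (SE 0.68) turned positive in fits of all 12 libraries. MNS1, a protein of flagella and motile cilia, was at 6.66 to 11.9 and 5.45 to 9.33 CPM, with a log2 fold change of 0.23 (SE 0.29) that was below 0 without SL253805 and in fits of all 12 libraries. P2RY12, the ADP receptor of platelets, was at 3.94 to 18.9 and 2.57 to 7.42 CPM (log2 fold change 0.56, SE 0.47), and the highest value, in SL253814, turned the sign when left out (-0.24). ADAM20, a member of a family of surface proteases, was at 0.564 to 2.55 and 0.606 to 2.57 CPM (log2 fold change 0.21, SE 0.52, and -0.09 without SL253805).

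Of the remaining genes of the list, PPP1R1B, an inhibitor of protein phosphatase 1, ranged from 1.97 to 65.4 CPM in the non-pregnant and from 0.472 to 31.7 CPM in the AI-pregnant heifers (log2 fold change 0.50, SE 1.104). LOC107131247 ranged from 1.26 to 50.8 CPM in non-pregnant heifers and from 0 to 128 CPM in AI-pregnant ones, with a log2 fold change of -0.19 (SE 1.72) that was 2.55 without SL253807. LOC618633 was at 6.33 to 35.1 and 4.47 to 24.9 CPM (log2 fold change 0.34, SE 0.50). For these 3 genes, as for most of the 16 tested, the standard error exceeded the fitted difference.

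**Figure D5:**
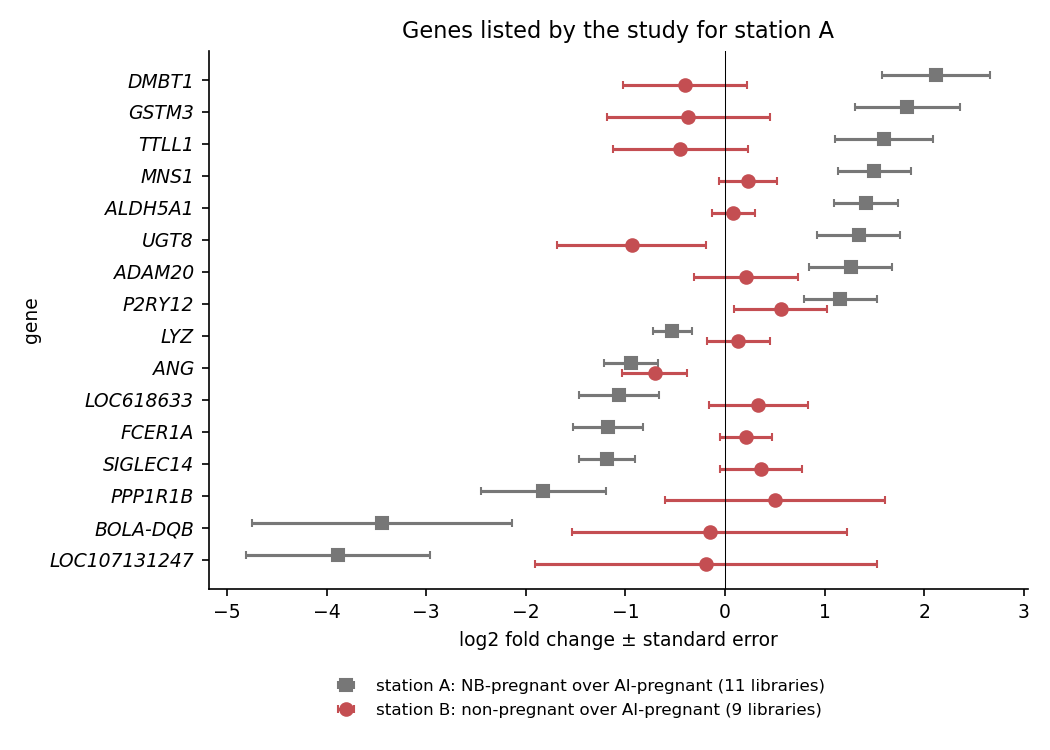
Log2 fold changes with standard errors (x axis) of the 16 tested genes of the study's station A list (y axis), for NB-pregnant over AI-pregnant heifers of station A (squares, 11 libraries) and non-pregnant over AI-pregnant heifers in the 9 libraries of station B (circles). The circles lie between -0.93 and 0.56, and 7 of 16 have the sign of the square.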

How the data were processed

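The authors aligned adapter-trimmed read pairs of stranded poly(A) libraries to bovine genome UMD 3.1 (aligner not given in the sources used here), dropped duplicated and multi-mapped pairs, and counted the rest on Ensembl annotation 1.87 with HTSeq, whose strand setting is not stated. They deposited whole-number counts per gene without normalization, tables of the genes that exceeded 1 CPM in at least 6 libraries, and FPKM, which the authors had scaled by gene length and library total. The 9 libraries, genes and lists were chosen with earlier results of these data known.

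Counts of genes above 1 CPM in at least 4 of the 9 libraries were fitted with edgeR 4.0.16 (TMM factors, robust dispersion, quasi-likelihood test, Benjamini-Hochberg adjustment at 0.05 over 10835 genes). Fold changes are relative to AI-pregnant heifers, and standard errors were obtained by dividing the absolute log2 fold change by the square root of F. The rule of the study used edgeR without factors and DESeq2 1.42.0 (limma 3.58.1, R 4.3.3). Each heifer is 1 library, and the p-values measure the spread between heifers. Single genes were compared by two-sided exact permutation tests (Python 3.11.15, scipy 1.17.1). Station A was fitted apart, with more than 1 CPM in 5 or more of 11 libraries. Scripts were tested on simulated counts. Principal components used log2 CPM with a prior count of 2. Alternatives were other factors, tools, filters, a covariate, all 12 libraries and each library left out. The interaction of outcome and library class was added after the data had been seen.

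Named genes are those with an adjusted call, the 24 that the study's tables pair with a symbol, and the 2 without a symbol with the smallest p in each direction. Genes called by the rule were to be named too, and are given as counts where the files do not pair an identifier with a name. Of 298 symbols fixed in 24 marker and pathway lists, 14 matched, at most 4 in a list, so list medians were not computed. Genome coordinates are not given, because the gene name table used here was of another build.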

Additional observations from a re-analysis of the deposited data

Results flagged for a closer look

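In 6 of 56 groups of 4 or 5 libraries, each a listed or named gene in an outcome group, 1 library stood far from the others of its group, with a gap to its nearest neighbor larger than 95% of samples from a normal distribution would give. Chance alone flags about 1 in 20 groups. In AI-pregnant heifers, BOLA-DQB was at 32.4 CPM in SL253807, with the next value at 4.39 CPM. LOC107131247 was at 128 CPM in the same library, with the next value at 15.4 CPM. LYZ was at 2146 CPM in SL253809, with the next at 959 CPM, and DMBT1 at 4.33 CPM in SL253812, with the next at 1.54 CPM. In non-pregnant heifers, P2RY12 was at 18.9 CPM in SL253814, with the next at 5.57 CPM, and ALAS2 at 9.50 CPM in SL253806, with the next at 4.14 CPM. None of these genes passed the adjusted quasi-likelihood test of edgeR with the library, nor, where it still had enough libraries above 1 CPM to be tested, without it. BOLA-DQB was not tested without SL253807.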

How the results depend on the processing

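The quasi-likelihood test called ENSBTAG00000027962 and no other gene without normalization factors, with DESeq2, limma-voom or the first principal component as a covariate, without a filter, with more than 1 CPM in all 9 libraries, and on the genes of the authors' filtered table. It called 0 genes in all 12 libraries (52 with an unadjusted p below 0.05) and 0 with the library class as a covariate (166), where the log2 fold changes were 1.69 and 1.57, and 0 to 1 with a library left out. The rule of the study called 8 (without SL253806) to 105 genes (without SL253805) with a library left out, 21 with DESeq2 alone and 1 with adjusted p in both, and 9 in all 12 libraries, of which 1 was among the 12. With limma-voom and quality weights, 1588 genes had an unadjusted p below 0.05. The causes were not tested.

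Of the fitted values of single genes, 417 kept their direction and call, 7 of ENSBTAG00000027962 lost the call and 30 of uncalled genes changed sign. These were BOLA-DQB (0.18) and LOC107131247 (0.84) with the first principal component, and GSTM3 (0.91), MNS1 (-0.11), LOC618633 (-0.52), BOLA-DQB (0.44) and LOC107131247 (1.46) with limma-voom. In all 12 libraries they were DMBT1 (0.10), TTLL1 (0.31) and MNS1 (-0.066), and with the library class DMBT1 (0.025), GSTM3 (0.14), TTLL1 (0.073), MNS1 (-0.020) and ALDH5A1 (-0.037). With a library left out, values ran from -0.027 to 0.37 for MNS1, -0.084 to 0.22 for ALDH5A1, -0.086 to 0.51 for ADAM20, -0.46 to 0.22 for BOLA-DQB, -0.0099 to 0.65 for LOC618633, -0.33 to 0.89 for PPP1R1B, -0.68 to 2.55 for LOC107131247, -1.001 to 0.76 for GSTM3, -0.73 to 0.19 for DMBT1, -0.24 to 0.78 for P2RY12 and -0.11 to 0.54 for LYZ.

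List medians were not run, because too few symbols matched. No paired analysis was possible because replicate numbers only name heifers. At 5.58 to 9.33 read pairs per CPM, genes near 1 CPM carried large counting error.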

Other observations

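The 2 genes of the study's station A list that could not be tested in the 9 libraries differed in where they were found. TPPP, which promotes the polymerization of tubulin, was at 0 to 0.179 CPM in the 9 libraries and at 3.15, 10.1 and 4.01 CPM in SL253804, SL253808 and SL253811, the 3 set aside. KIR3DL1, an inhibitory receptor of natural killer cells, was at 0 to 2.12 CPM in the 9 libraries and at 0.615, 1.06 and 1.13 CPM in those 3. PPP1R1B was at 86.2, 133 and 102 CPM in the 3 libraries and at 65.4 CPM or lower in the 9. TPPP and KIR3DL1 are themselves among the genes that the authors filtered out. Their counts are thus part of the share that separated the libraries, and their levels in the 3 are not independent of that choice. These values describe libraries that were separated by the share of filtered-out genes, and no test was run on them.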
